A study of Mus musculus with 4 samples.

Results

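The genes described here form the machinery that moves proteins between the endoplasmic reticulum (ER) and the Golgi. They were chosen by a fixed list of 42 symbols covering the COPII coat, the COPI coat, cargo receptors and the fusion machinery, and all 42 were found among the 32286 features of the files. Their RNA was read in single nuclei from cortex and hippocampus, in C57BL/6J mice aged 5 weeks, in 4 libraries of 1 mouse each. Of these, 2 libraries are titled WT and come from Sel1L flox/flox mice, and 2 are titled KO and come from Sel1L Syn-Cre mice, in which a Cre recombinase driven by the Synapsin I promoter acts on the same floxed alleles in postmitotic neurons. By these descriptions floxed Sel1L alleles were common to both groups, which the counts do not check. The comparison asked how neurons change when they lose SEL1L, the adaptor of the ubiquitin ligase HRD1 that removes misfolded proteins from the ER. By the paper's protein staining, SEL1L was lost in a subset of cortical neurons and in nearly all neurons of the hippocampal regions CA3 and dentate gyrus. In the CA1 region SEL1L was largely kept.

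Newly folded proteins leave the ER in vesicles coated with COPII. The GTPase SAR1 starts the coat at exit sites marked by SEC16, an inner layer of SEC23 and SEC24 picks the cargo, and an outer cage of SEC13 and SEC31 shapes the vesicle. Soluble and membrane cargo is gathered by receptors such as LMAN1, SURF4 and the p24 (TMED) proteins. COPI-coated vesicles return escaped ER proteins, which KDEL receptors recognise by their tail signal, and SNARE proteins with golgin tethers let the vesicles fuse. Neurons use this route for receptors, channels and secreted peptides.

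The 4 libraries kept between 6797 and 11092 nuclei with 66073797 to 100678373 unique molecular identifiers (UMIs, which count RNA molecules), and medians of 7232.5 to 8395 UMIs per nucleus. Between 10 and 34 cell barcodes were shared by each pair of libraries. The 17 classes tested held 27261 of 33281 nuclei. A cluster was called "like" a cell type where at least 3 markers of a fixed list were enriched in it, unless its leading genes held more markers of another type or it was shallow with no marker among them, and 3 large clusters without a name are called by their leading gene. The other 6020 nuclei lay in neuroblast-, L5/6 NP-, L5 ET-, L6b-, thalamus- and Cajal-Retzius-like clusters and in the other unnamed clusters, of at most 831 nuclei. These were not tested as classes, and their neurons entered only the sum over all 22554 neurons. Each class was summed to 1 pseudobulk per library. *Sel1l* itself stood at 94.9 and 89.0 CPM (a gene's share of all UMIs of a pseudobulk, in the usual count-based unit) in neurons of the WT libraries and at 152 and 128 in those of the KO libraries, so it was higher where a deletion is labelled. Counts of 3′ ends do not resolve the deleted exon and do not check the deletion. Cre in neurons stood at 4.24 CPM in the first WT library, 0 in the second, and 3.56 and 3.37 in the KO libraries, so the library labelled WT replicate 1 held Cre UMIs against its label. In its *Pvalb*-like nuclei Cre stood at 29.7 CPM and *Sel1l* at 93.3. *Sel1l* there stood at 88.7 in WT replicate 2 and at 463 and 301 in the KO libraries. The alleles of WT replicate 1 cannot be read from these counts. Every direction below is therefore between libraries labelled KO and libraries labelled WT. Member medians without WT replicate 1 are given for the main comparison. *Xist* and *Ddx3y* marked replicate 1 as male and replicate 2 as female in both groups, so sex and replicate number cannot be told apart. In tissue nuclei, fewer RNA molecules per nucleus and fewer nuclei of a state within a class cannot be told apart.

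Transport genes rose in the KO libraries of *Sst*-like and *Pvalb*-like interneurons and of dentate gyrus (DG)-like granule neurons, and no member was called lower in any class. In *Sst*-like nuclei 18 of 39 tested members rose, against 4.66% of all genes tested there that were called higher. In DG-like nuclei 16 of 39 rose, against 1.91% of genes, and in *Pvalb*-like nuclei 9 of 39, against 2.17%. Calls are adjusted p-values under 0.05 from edgeR's quasi-likelihood test over all genes of a class. The members were chosen with earlier results of these data known, so these shares are a description and no independent support. The median log2 fold change of the tested members was 0.65 in *Sst*-like nuclei, 0.51 in *Pvalb*-like nuclei and 0.46 in DG-like nuclei, while the median of all genes was 0.01 in each. Both KO libraries stood above both WT libraries for 30 of 39 members in *Sst*-like nuclei (26.6% of all genes), 29 of 39 in *Pvalb*-like nuclei (24%) and 28 of 39 in DG-like nuclei (23.0%). Without WT replicate 1 fewer members were called in *Sst*-like and *Pvalb*-like nuclei and as many in DG-like nuclei. Fewer of all genes were called higher in each of these classes. With DESeq2 the members called were 10, 7 and 11, against 266 of 11836, 157 of 12261 and 132 of 13061 genes called higher. With pseudobulks thinned to 1075457 UMIs they were 13, 8 and 9, against 410 of 10479, 189 of 10326 and 114 of 10025 genes. The member medians without WT replicate 1 were 0.73, 0.49 and 0.45, and the median of all genes was 0.01 in each.

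**Figure D1:**
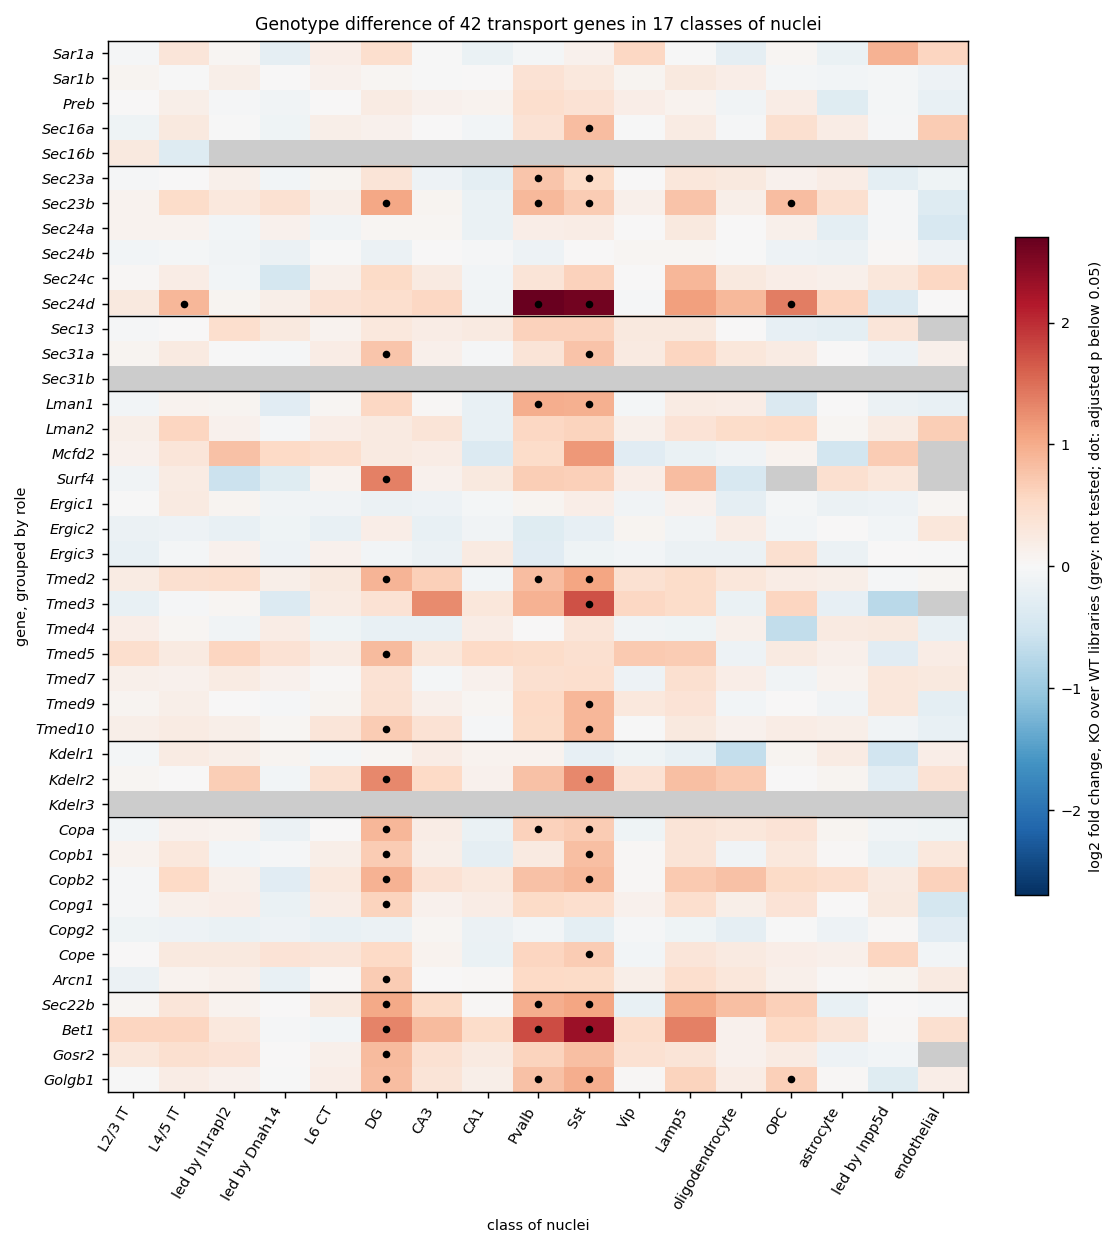
Log2 fold change of each of the 42 transport genes (rows, grouped by role) between KO and WT libraries in 17 classes of nuclei (columns), with 2 libraries per group. Red is higher in the KO libraries, grey was not tested, and dots mark adjusted p-values under 0.05. The dots lie mainly in the *Sst*, *Pvalb* and DG columns, and the darkest cells are *Sec24d* and *Bet1* in *Sst*-like and *Pvalb*-like nuclei.

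The inner COPII coat held the largest change of all members. *Sec24d* encodes 1 of 4 SEC24 paralogues, the subunits that bind cargo (ENSMUSG00000039234, GRCm38 chr3:123267455-123365641, plus strand). In *Sst*-like nuclei it stood at 18.9 and 12.35 CPM in the WT libraries and at 119 and 76.9 in the KO libraries, from 52, 23, 220 and 128 UMIs. This was a 6.11-fold rise, or 2.61 ± 0.24 on the log2 scale (SE, 2 libraries per group, adjusted p = 4.4e-06). In *Pvalb*-like nuclei *Sec24d* went from 11.9 and 12.2 CPM in the WT libraries to 90.15 and 62.55 in the KO libraries. The log2 fold change there was 2.66 ± 0.23 (adjusted p = 8.5e-05), and the groups lay far apart in both classes. The CPM of members are scaled by edgeR's trimmed mean of M-values (TMM) within a class, while those of Cre, *Sel1l* and marker sums are not.

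In DG-like nuclei *Sec24d* was already high in the WT libraries, at 59.5 and 62.8 CPM, and stood at 87.6 and 78.7 in the KO libraries. The log2 fold change of 0.45 ± 0.12 did not pass the test (adjusted p = 0.056). In CA1-like pyramidal neurons the same gene stood at 22.4 and 22.9 in the WT and 21.1 and 21.35 in the KO libraries, and in *Vip*-like interneurons at 29.1 and 22.1 against 26.75 and 23.6, so the groups lay close together or overlapped. Without TMM scaling, so that classes can be set side by side, the WT mean ran from 6.0 CPM in L2/3 IT-like nuclei through 11.7 in *Pvalb*-like and 14.9 in *Sst*-like nuclei to 59.6 in DG-like and 68.8 in endothelial-like nuclei. The endothelial-like mean is uncertain, as WT replicate 2 held only 36 such nuclei with 69783 UMIs. The class was also mixed. In its WT libraries mural or fibroblast markers summed to 2420 and 2950 CPM, beside 4740 and 3980 for endothelial markers. Without integration 38.97% of its nuclei kept the name, so this level cannot be credited to endothelial cells alone. In the KO libraries the *Sst*-like mean was the highest of all 17 classes at 99.5, followed by DG-like nuclei at 84.3 and *Pvalb*-like nuclei at 77.6. Their single KO libraries stood at 120.0 and 78.9, 88.4 and 80.3, and 91.6 and 63.6 CPM, so these 3 classes overlapped and were not ordered beyond their spread. The difference in fold change against DG-like nuclei was tested after these values were seen. It was 2.19 ± 0.22 on the log2 scale for *Sst*-like nuclei (adjusted p = 3.8e-10) and 2.16 ± 0.21 for *Pvalb*-like nuclei (adjusted p = 3.1e-07). Of 40 members tested, 2 differed in this way between *Sst*-like and DG-like nuclei (1.82% of genes), the second being the exit-site scaffold gene *Sec16a* at 0.77 ± 0.21, and 1 differed between *Pvalb*-like and DG-like nuclei (0.821%). *Sec24d* was called in both comparisons without each library in turn, and *Sec16a* in none of them.

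No other *Sec24* paralogue passed the test in any class. *Sec24b* stood at 128.8 and 119.8 CPM in the WT and 129.5 and 120.1 in the KO libraries of *Sst*-like nuclei, a log2 fold change of 0.00 ± 0.14 (adjusted p = 0.99). *Sec24a* had log2 fold changes of 0.20, 0.18 and 0.06 in *Sst*-, *Pvalb*- and DG-like nuclei, with overlapping groups in each. *Sec24c* lay at 0.62, 0.34 and 0.52, with both KO libraries above both WT libraries in each class.

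Both *Sec23* genes, which encode the GTPase-activating subunit of the inner coat, rose in 2 or more of these classes. *Sec23b* stood at 19.9 and 17.5 CPM in the WT and 45.0 and 32.2 in the KO libraries of DG-like nuclei (log2 fold change 1.04 ± 0.19, adjusted p = 0.0075). In *Pvalb*-like nuclei it went from 24.4 and 21.5 to 44.65 and 40.1 (0.88 ± 0.19, adjusted p = 0.023), and in *Sst*-like nuclei it rose by 0.68. *Sec23a* rose in *Pvalb*-like nuclei from 64.8 and 53.9 to 105 and 96.2 CPM (0.75 ± 0.15, adjusted p = 0.016). It also rose in *Sst*-like nuclei, by 0.51, and lay at 0.34 in DG-like nuclei (adjusted p = 0.14).

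**Figure D2:**
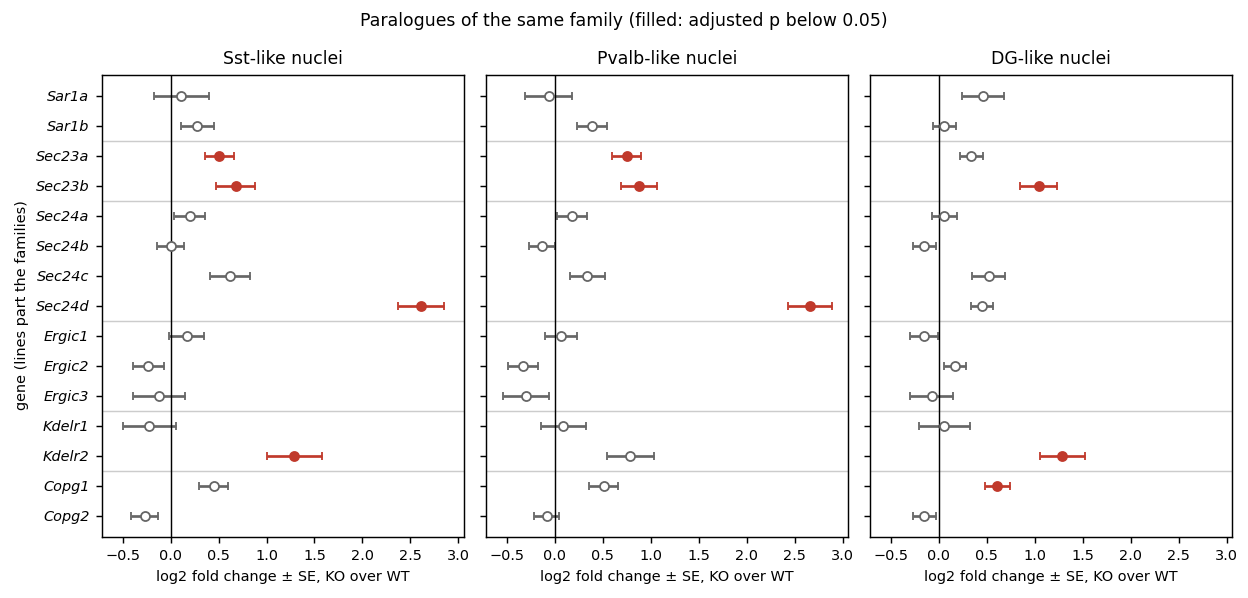
Log2 fold change between KO and WT libraries with its standard error for members of 6 gene families (rows) in *Sst*-like, *Pvalb*-like and DG-like nuclei (panels), 2 libraries per group. Filled red points passed an adjusted p of 0.05. *Sec24d* stands 2.61 and 2.66 above zero in the first 2 panels while *Sec24a* and *Sec24b* lie near zero, and *Kdelr2* lies right of *Kdelr1* in all 3.

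Promoters are shown for some of the members that rose in at least 1 class. Not all of these were called in the same classes: *Sec24d* and *Sec23a* were not called in DG-like nuclei, nor *Copb1* and *Copb2* in *Pvalb*-like nuclei. RefSeq sequences (GRCm38.p6) of 250 bases before to 50 bases after the start were at hand for 36 of the 42 members, in 40 promoters. *Lman1*, *Tmed2*, *Tmed7*, *Kdelr2*, *Arcn1* and *Golgb1* were not among them, and all of these but *Tmed7* rose in at least 1 class. The core of the unfolded protein response element, TGACGTG on either strand, was present in the promoters of 6 members, *Sec24d*, *Sec23a*, *Copb1*, *Copb2*, *Kdelr3* and *Sec16b*, and in 2.01% of all 32851 promoters of this length. The cyclic AMP response element TGACGTCA begins with the same letters TGACGT, so the 2 cannot match at the same base of one strand. It was found in 2 members, *Cope* and *Gosr2*, and in 1.79% of all promoters. The ER stress response element, CCAAT and CCACG with 9 bases between, was in no member promoter and in 0.119% of all, and TGATGCAA, a composite of C/EBP and ATF sites, in none and 0.895%. The sequences printed here run 5′ to 3′ on the strand of the gene, and capitals mark the core, which reads CACGTCA where it lies on the other strand. *Bet1*, which rose without any of these letters in its promoter, is shown beside them. Also without them were the promoters of *Sec16a*, *Sec23b*, *Sec31a*, *Surf4*, *Tmed3*, *Tmed5*, *Tmed9*, *Tmed10*, *Copa*, *Copg1* and *Sec22b*. Each of these genes rose in at least 1 class, and their sequences are not printed. A match is a description of the sequence and no match says only that these letters are not in this window.
Sec24d, chr3:123267246-123267545, plus strand: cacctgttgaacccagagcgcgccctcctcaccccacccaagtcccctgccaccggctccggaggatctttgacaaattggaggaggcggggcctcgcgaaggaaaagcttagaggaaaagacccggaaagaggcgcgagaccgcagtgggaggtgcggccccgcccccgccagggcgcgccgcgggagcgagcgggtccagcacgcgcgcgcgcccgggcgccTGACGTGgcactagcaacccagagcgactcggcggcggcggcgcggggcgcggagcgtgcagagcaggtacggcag
Sec23a, chr12:59011968-59012267, minus strand: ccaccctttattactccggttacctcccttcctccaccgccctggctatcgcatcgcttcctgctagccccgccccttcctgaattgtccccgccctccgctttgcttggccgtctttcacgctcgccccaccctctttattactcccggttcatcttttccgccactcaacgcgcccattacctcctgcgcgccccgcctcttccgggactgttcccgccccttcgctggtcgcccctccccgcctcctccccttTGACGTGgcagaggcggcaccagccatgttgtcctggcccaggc
Copb2, chr9:98563481-98563780, plus strand: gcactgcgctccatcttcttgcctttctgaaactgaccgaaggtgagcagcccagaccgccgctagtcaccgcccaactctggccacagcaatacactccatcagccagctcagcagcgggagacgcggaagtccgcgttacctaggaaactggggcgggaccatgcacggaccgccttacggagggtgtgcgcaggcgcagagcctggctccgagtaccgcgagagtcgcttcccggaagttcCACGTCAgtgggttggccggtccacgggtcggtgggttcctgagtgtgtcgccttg
Copb1, chr7:114254631-114254930, minus strand: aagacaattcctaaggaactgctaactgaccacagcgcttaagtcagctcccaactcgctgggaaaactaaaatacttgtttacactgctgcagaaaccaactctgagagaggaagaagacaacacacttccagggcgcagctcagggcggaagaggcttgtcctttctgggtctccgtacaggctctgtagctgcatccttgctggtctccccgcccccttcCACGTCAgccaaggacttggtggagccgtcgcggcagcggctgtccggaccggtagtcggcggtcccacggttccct
Bet1, chr6:4086881-4087180, minus strand: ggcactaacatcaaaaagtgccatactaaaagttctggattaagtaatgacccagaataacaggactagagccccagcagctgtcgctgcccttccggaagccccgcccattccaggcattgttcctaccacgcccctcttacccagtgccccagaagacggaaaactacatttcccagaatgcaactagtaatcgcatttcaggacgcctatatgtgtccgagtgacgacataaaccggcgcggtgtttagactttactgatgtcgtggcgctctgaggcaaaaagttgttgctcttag

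Of the genes of the COPII start and of the outer cage, only *Sec16a* and *Sec31a* were called in any class. *Sar1a* and *Sar1b*, which encode the GTPase, were not called in any class, and their log2 fold changes in *Sst*-like nuclei were 0.11 and 0.28. *Preb*, the exchange factor that activates SAR1, lay at 0.38, 0.45 and 0.23 in *Sst*-, *Pvalb*- and DG-like nuclei, with the KO libraries above the WT libraries in each and no call. *Sec16a* rose in *Sst*-like nuclei by 0.84 ± 0.18 (adjusted p = 0.0066), with 0.39 in *Pvalb*-like and 0.12 in DG-like nuclei. *Sec16b* was nearly silent and was not tested there, with 2 and 2 UMIs in the WT and 9 and 6 in the KO libraries of *Sst*-like nuclei. The cage gene *Sec31a* rose by 0.76 in *Sst*-like and 0.74 in DG-like nuclei, while *Sec13* lay between 0.28 and 0.63 in the 3 classes without a call. *Sec31b* had at most 2 UMIs per library in these classes and was tested over all neurons together, where it was not called.

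Among the cargo receptors *Lman1* and *Surf4* rose, in different classes. *Lman1* encodes ERGIC-53, a lectin that carries glycoproteins out of the ER. It stood at 27.9 and 30.1 CPM in the WT and 55.25 and 57.7 in the KO libraries of *Sst*-like nuclei (log2 fold change 0.96 ± 0.185, adjusted p = 0.0029), and at 25.0 and 29.5 against 56.0 and 50.9 in *Pvalb*-like nuclei (0.98 ± 0.18, adjusted p = 0.0092, and 0.0708 without WT replicate 1). In DG-like nuclei it lay at 0.55 (adjusted p = 0.058). *Surf4*, a receptor for soluble secreted proteins, rose in DG-like nuclei from 5.80 and 4.598 to 14.5 and 12.5 CPM (1.35 ± 0.27, adjusted p = 0.014), from 39, 20, 55 and 43 UMIs, and lay at 0.65 in *Sst*-like and 0.67 in *Pvalb*-like nuclei without a call. The 2 were thus called in different classes, and the difference between *Sst*-like and DG-like nuclei was not called for either. *Mcfd2*, the partner of LMAN1, lay at 1.17 ± 0.37 in *Sst*-like nuclei (adjusted p = 0.063), from 9 to 33 UMIs per library. *Lman2* lay at 0.61, 0.55 and 0.25. *Ergic1*, *Ergic2* and *Ergic3* were not called in any class, and their log2 fold changes in the 3 classes ran from -0.33 to 0.17.

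The p24 proteins pack and sort cargo, among it proteins with a lipid anchor, at both coats. *Tmed2* rose in all 3 classes. It stood at 31.6 and 34.4 CPM in the WT and 75.3 and 62.5 in the KO libraries of *Sst*-like nuclei (log2 fold change 1.07 ± 0.18, adjusted p = 0.0012), and at 40.0 and 35.6 against 80.0 and 62.4 in DG-like nuclei (0.91 ± 0.14, adjusted p = 0.0033). In *Pvalb*-like nuclei it went from 32.1 and 30.8 to 61.1 and 50.9 (0.83 ± 0.175, adjusted p = 0.019, and 0.0747 without WT replicate 1). No WT library reached a KO library in any of the 3. *Tmed3* rose in *Sst*-like nuclei from 6.17 and 3.76 to 17.3 and 16.8 CPM (1.72 ± 0.36, adjusted p = 0.0057), from only 17, 7, 32 and 28 UMIs. *Tmed10* rose in *Sst*-like and DG-like nuclei by 0.90 and 0.68, *Tmed9* in *Sst*-like nuclei by 0.89 and *Tmed5* in DG-like nuclei by 0.86. *Tmed4* lay between -0.19 and 0.32 in the 3 classes. *Tmed7* lay between 0.40 and 0.46 without a call. Alone of the members, it shares exon bases on the same strand with another counted gene, *Ticam2*, so its counts are uncertain.

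Of the KDEL receptors, *Kdelr2* rose while its paralogue *Kdelr1* did not pass the test. *Kdelr2* stood at 11.97 and 8.595 CPM in the WT and 28.7 and 22.8 in the KO libraries of *Sst*-like nuclei (log2 fold change 1.29 ± 0.29, adjusted p = 0.0083). In DG-like nuclei it stood at 6.69 and 8.51 against 17.9 and 18.9 (1.29 ± 0.23, adjusted p = 0.007), and in *Pvalb*-like nuclei at 13.4 and 11.8 against 20.2 and 23.7 (0.79, adjusted p = 0.1). *Kdelr1* lay at -0.22, 0.06 and 0.09 in these classes with overlapping groups. *Kdelr3* had at most 5 UMIs per library in the 3 classes and was not tested there.

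Most subunits of the COPI coat rose in DG-like nuclei. There 5 of 7 passed the test, *Copa*, *Copb1*, *Copb2*, *Copg1* and *Arcn1*, against 4 of 7 in *Sst*-like nuclei (*Copa*, *Copb1*, *Copb2* and *Cope*) and *Copa* in *Pvalb*-like nuclei. *Copa*, the alpha subunit that binds retrieval signals, stood at 89.1 and 87.4 CPM in the WT and 179.9 and 148 in the KO libraries of DG-like nuclei (log2 fold change 0.89 ± 0.12, adjusted p = 0.0011). *Copb2* stood at 23.8 and 22.3 against 50.8 and 38.05 (0.94 ± 0.17, adjusted p = 0.0075). The other 3 rose by 0.61 to 0.69. *Copg1* and *Copg2* are paralogues of the gamma subunit. *Copg1* rose by 0.61 in DG-like nuclei, and *Copg2* lay at -0.15, -0.08 and -0.27 in DG-, *Pvalb*- and *Sst*-like nuclei without a call. The exons of *Copg2* overlap those of *Mest* on the opposite strand by 912 bases, and those of *Copg1* overlap *Gm26636* in the same way by 941. Of the 42 members, 13 share exon bases with another counted gene.

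Fusion genes rose together. All 4 passed the test in DG-like nuclei, and *Sec22b*, *Bet1* and *Golgb1* passed it in *Sst*-like and *Pvalb*-like nuclei as well. *Bet1*, a SNARE of ER-to-Golgi vesicles, stood at 9.43 and 9.67 CPM in the WT and 55.8 and 39.0 in the KO libraries of *Sst*-like nuclei, from 26, 18, 103 and 65 UMIs. This 4.97-fold rise was the second largest of the members (log2 fold change 2.31 ± 0.26, adjusted p = 2.7e-05). *Bet1* also went from 13.1 and 12.2 to 51.0 and 35.7 in *Pvalb*-like nuclei (1.76 ± 0.24, adjusted p = 0.0015), and from 9.67 and 12.2 to 33.4 and 20.3 in DG-like nuclei (1.33 ± 0.245, adjusted p = 0.008). The WT libraries of the 3 classes thus lay between 9.43 and 13.1 CPM, and the KO libraries lay apart from one another more than the WT libraries did.

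*Sec22b*, which encodes a SNARE that pairs with BET1, stood at 27.9 and 26.9 CPM in the WT and 59.05 and 55.3 in the KO libraries of *Sst*-like nuclei (1.06 ± 0.19, adjusted p = 0.0015), and at 33.3 and 30.8 against 70.8 and 60.7 in DG-like nuclei (1.03 ± 0.14, adjusted p = 0.00085). In *Pvalb*-like nuclei it went from 23.5 and 27.8 to 52.7 and 48.5 (0.99 ± 0.18, adjusted p = 0.0096), and without WT replicate 1 the adjusted p was 0.0717. *Golgb1*, the golgin giantin that tethers COPI vesicles, rose from 204 and 222 to 429.6 and 409.6 CPM in *Sst*-like nuclei (0.98 ± 0.135, adjusted p = 0.00017). In *Pvalb*-like nuclei it rose from 186 and 211 to 355.5 and 330.0 (0.79 ± 0.13, adjusted p = 0.0052), and in DG-like nuclei by 0.84. *Gosr2* rose in DG-like nuclei by 0.86 and lay at 0.81 in *Sst*-like nuclei (adjusted p = 0.057).

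**Figure D3:**
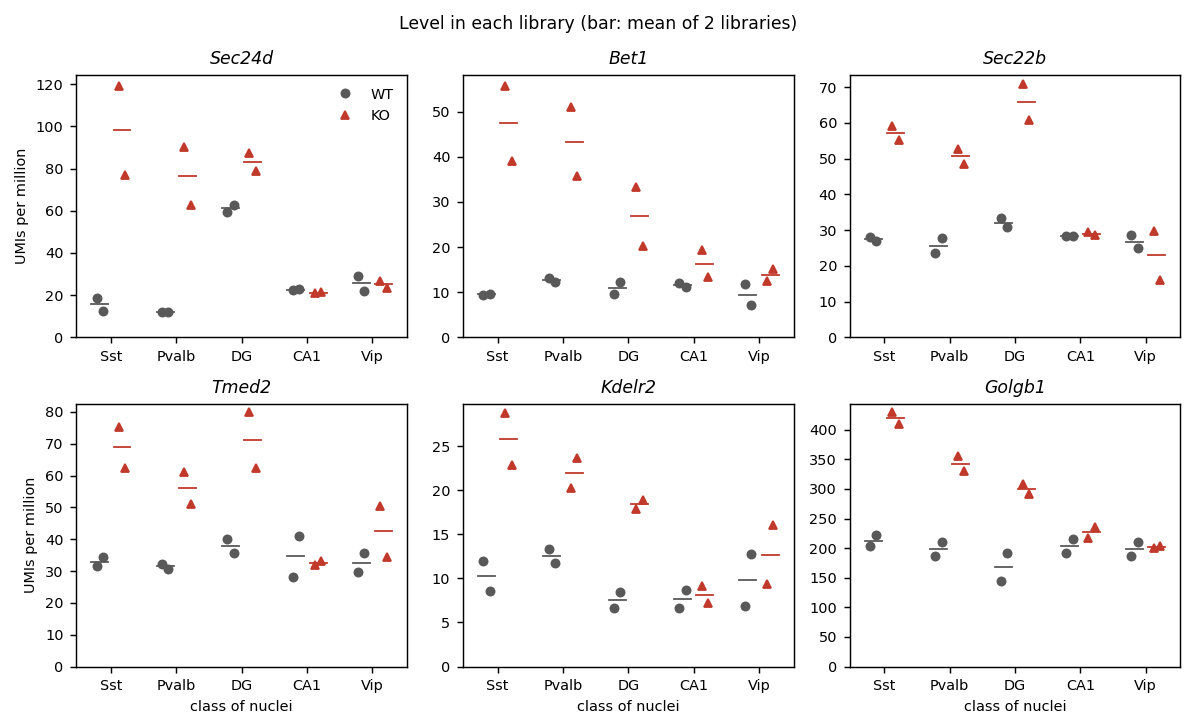
CPM (TMM-scaled, linear axis from 0) of 6 transport genes in each library of 5 classes of neurons. Grey circles are the 2 WT libraries, red triangles the 2 KO libraries, and bars their means. In *Sst*-like and *Pvalb*-like nuclei all red triangles lie above the grey circles for each gene, and in CA1-like nuclei *Sec24d* and *Sec22b* lie at one level in both groups.

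Fewer members passed the test in other neurons. In L4/5 IT-like neurons *Sec24d* was the only member called (1.20% of genes called higher), at 12.75 and 14.2 CPM in the WT and 26.85 and 23.1 in the KO libraries (log2 fold change 0.89 ± 0.17, adjusted p = 0.027). The call was lost with DESeq2, without KO replicate 1 and with thinned pseudobulks. The log2 fold change of *Sec24d* was 0.80 without WT replicate 1 and 0.96 without WT replicate 2. Both KO libraries lay above both WT libraries for 19 of 40 members (22.9% of genes). In *Lamp5*-like interneurons no member passed edgeR's test (0.450% of genes called in either direction), nor DESeq2's. The fit with the replicate number as a block called 4, with 171 of 10439 genes called higher against 30 in the main fit. In the main fit an unadjusted p under 0.05 was found for 12 of 39 members, all higher, against 11.2% of genes. *Sec22b* stood at 26.9 and 22.85 CPM in the WT and 51.4 and 50.7 in the KO libraries there, *Sec24d* at 25.6 and 39.0 against 77.1 and 58.2, and *Bet1* at 17.5 and 7.62 against 39.45 and 29.1. The groups did not overlap, and the log2 fold changes of 1.02, 1.10 and 1.35 had adjusted p-values of 0.088, 0.09 and 0.15. Both KO libraries lay above both WT libraries for 24 of 39 members there, against 21.0% of genes. Summed over all neurons, none of the 42 members was called by edgeR (0.159% of genes in either direction). In that fit 11 had an unadjusted p under 0.05 (12.7% of genes), of which *Sec31b* was lower. DESeq2 called 2, with 269 of 20127 genes called higher. Both KO libraries lay above both WT libraries for 29 of the 42 (22.7% of genes) and below for 3 (4445 of 20127 genes).

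In CA1-like and *Vip*-like neurons, no member passed edgeR's or DESeq2's test, and few genes did (0.0156% and 0.0178%). *Sel1l* stood at 117 and 108 CPM in the WT and 115 and 104 in the KO libraries of CA1-like nuclei. It stood at 96.6 and 89.2 against 102 and 79.6 in *Vip*-like nuclei, and at 81.0 and 72.3 against 235 and 192 in DG-like nuclei. *Sel1l* was also higher in classes where the main fit called no member. It stood at 97.3 and 106 against 189 and 174 in CA3-like nuclei, and at 112 and 124 against 280 and 217 in *Lamp5*-like nuclei. In oligodendrocyte-like nuclei it stood at 112 and 105 against 303 and 184. In OPC-like nuclei, where 3 members were called, it stood at 122 and 93.8 against 423 and 185. How many nuclei of each class lost SEL1L was not tested. In CA1-like and in *Vip*-like nuclei 1 member of 39, *Tmed5*, had an unadjusted p under 0.05 (8.63% and 6.70% of genes), with log2 fold changes of 0.53 and 0.71. The medians of the members were -0.03 and 0.04, and both KO libraries were above both WT libraries for 11 of 39 members in CA1-like (19.6% of genes) and 6 of 39 in *Vip*-like nuclei (18.3%). No member was called by either tool in 5 further neuronal classes. Genes called in either direction were 0.407% in L2/3 IT-like nuclei, 0.782% in the cluster led by *Il1rapl2*, 0.414% in the cluster led by *Dnah14*, 0.351% in L6 CT-like and 0.0493% in CA3-like nuclei. In the same order, members with an unadjusted p under 0.05 were 2 of 40, 3 of 39, 0 of 39, 2 of 39 and 6 of 39, against 12.6%, 9.93%, 9.77%, 10.8% and 8.18% of genes. Both KO libraries lay above both WT libraries for 18 of 39 members in CA3-like (19.5% of genes), 16 of 39 in L6 CT-like (21.3%) and 15 of 39 in *Il1rapl2*-led nuclei (20.1%), and for 10 of 40 in L2/3 IT-like (22.2%) and 4 of 39 in *Dnah14*-led nuclei (19.7%).

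The difference between subtypes was tested as an interaction of class and genotype with library as a block. Between DG-like and CA1-like nuclei, 12 of 39 members had a larger genotype difference in DG-like nuclei (1.55% of genes) and none a smaller one. *Sec23b* differed by 1.22 ± 0.22 on the log2 scale (adjusted p = 0.00047), *Copa* by 1.07 ± 0.14 (adjusted p = 2.4e-06) and *Sec22b* by 1.01 ± 0.185 (adjusted p = 0.00043). Between *Sst*-like and *Vip*-like nuclei 7 of 39 were larger in *Sst*-like nuclei (1.79%), led by *Sec24d* at 2.69 ± 0.30 (adjusted p = 7.5e-07) and *Bet1* at 1.87 ± 0.45 (adjusted p = 0.012). Between *Pvalb*-like and *Vip*-like nuclei 5 of 39 were larger (1.01%), again with *Sec24d* at 2.69 ± 0.31 (adjusted p = 1.2e-06). The last 2 comparisons share the *Vip*-like pseudobulks. Without WT replicate 1, or without KO replicate 1, fewer members were called in each comparison, and so were fewer of all genes. Without WT replicate 2 fewer members were called too, while all genes called larger fell only in the comparisons with *Vip*-like nuclei. DESeq2 called 1 in each, with 36, 23 and 17 of all genes called larger, against 215, 222 and 131 in the main fit.

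**Figure D4:**
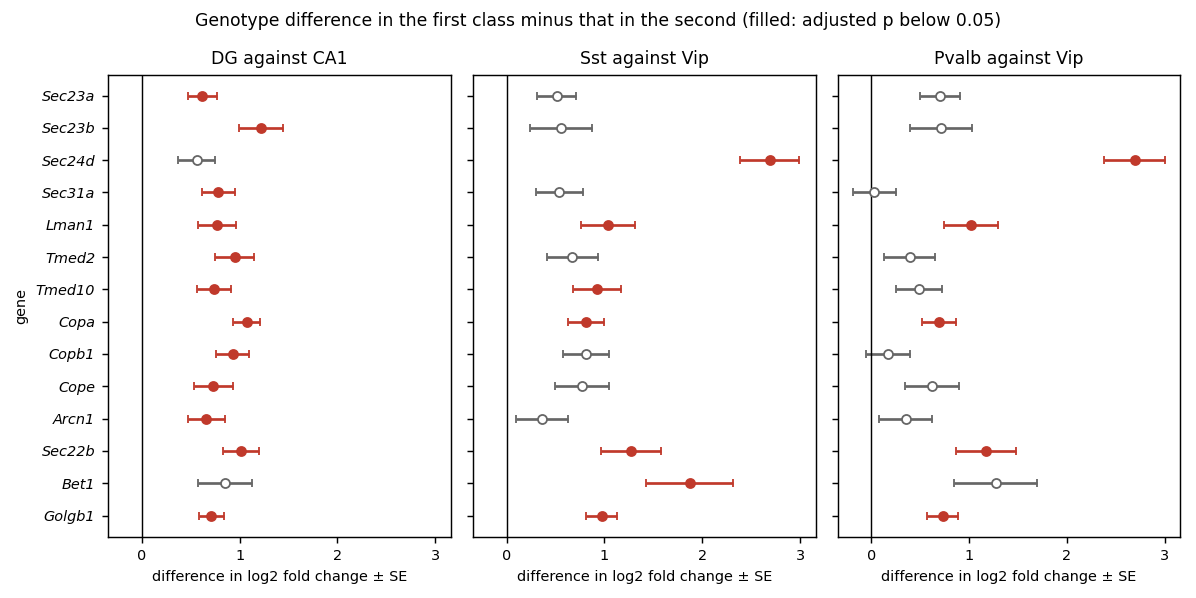
Difference of the log2 fold change (KO over WT libraries) between 2 classes of neurons, with its standard error, for the members called in at least 1 of 3 comparisons (panels). Filled red points passed an adjusted p of 0.05. All filled points lie right of zero, and *Sec24d* at 2.69 is the largest in the *Sst* and *Pvalb* panels but is not called in the DG panel.

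Cre UMIs varied over the classes. In the KO libraries they stood at 29.1 and 26.1 CPM in *Pvalb*-like, 17.5 and 14.8 in *Sst*-like and 8.29 and 7.66 in *Lamp5*-like nuclei, and at 5.58 and 7.11 in DG-like nuclei. They were 0.281 and 0.277 in CA1-like and 1.21 and 3.42 in *Vip*-like nuclei. In WT replicate 1 they were 29.7, 20.9, 11.5 and 6.75 CPM in the first 4 of these classes. CA3-like nuclei had Cre levels like those of DG-like nuclei, at 4.40 and 8.18, with a member median of 0.12 against 0.46. Levels of Cre and of member change come from the same libraries, and their link was not tested.

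**Figure D5:**
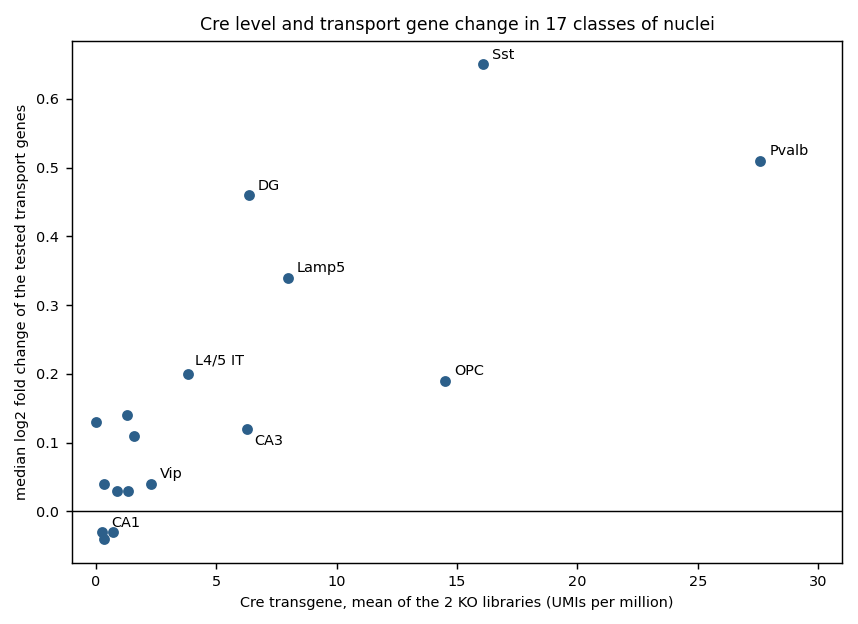
Mean Cre CPM in the 2 KO libraries (x axis) and median log2 fold change of the tested transport genes between KO and WT libraries (y axis) in 17 classes of nuclei, each a point. *Pvalb*-, *Sst*-, *Lamp5*- and DG-like nuclei have Cre means of 27.6, 16.1, 7.97 and 6.35 with member medians of 0.34 to 0.65, and OPC-like nuclei have a Cre mean of 14.5 with a median of 0.19.

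Among glial and vascular nuclei members were called in 1 class. In oligodendrocyte precursor (OPC)-like nuclei, which also held Cre UMIs at 17.4 and 11.7 CPM in the KO libraries, 3 of 38 members rose (3.87% of genes were called higher). *Sec24d* stood at 16.0 and 21.3 CPM in the WT and 55.9 and 39.9 in the KO libraries (1.38 ± 0.27, adjusted p = 9.5e-05), *Sec23b* at 26.6 and 19.6 against 47.9 and 35.1 (0.83 ± 0.26, adjusted p = 0.031) and *Golgb1* at 88.8 and 94.9 against 158.0 and 130.5 (0.65 ± 0.18, adjusted p = 0.0087, and 0.0689 without WT replicate 1). The summed level of 6 mature oligodendrocyte markers in these nuclei was 2960 and 2370 CPM in the WT and 104 and 148 in the KO libraries, and the part of this in the result was not tested. With DESeq2 or with doublets kept 1 of them was called, *Sec24d*, while genes called higher went from 447 to 171 and 212. Without KO replicate 1 the log2 fold changes of the 3 lay between 0.50 and 1.11. Pseudobulks thinned to 69783 UMIs were too low to test these 3 genes. No member was called in oligodendrocyte-like (0.942% of genes in either direction), astrocyte-like (1.27%) or endothelial-like nuclei (0%), or in the cluster led by *Inpp5d* (0.0841%), and none by DESeq2. In the same order 4, 0, 0 and 2 members had an unadjusted p under 0.05, against 10.9%, 13%, 5.89% and 8.33% of genes. Both KO libraries lay above both WT libraries for 17 of 39, 7 of 39, 8 of 34 and 8 of 39 members (21%, 21.9%, 18.5% and 20.1% of genes). They lay below for 3, 8, 2 and 7 members, and for 2340 of 11466, 2550 of 11775, 1420 of 8398 and 2039 of 10698 genes. In OPC-like nuclei 13 of 38 lay above (23.4% of genes) and 3 below (2611 of 11560 genes).

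Other genes of the route were tested as well. Of 58 further ER-Golgi genes, 10 of 54 tested rose in *Sst*-like (4.66% of genes), 10 of 57 in DG-like (1.91%) and 8 of 56 in *Pvalb*-like nuclei (2.17%), and none was called lower, with list medians of 0.34, 0.17 and 0.33. *Nucb2*, a calcium-binding protein of the Golgi that also gives the peptide nesfatin, led with log2 fold changes of 2.32, 2.48 and 2.64. *Arf4*, a GTPase that recruits COPI, rose by 0.98, 0.92 and 0.87, the tether gene *Uso1* by 0.80, 0.59 and 0.85, the Golgi stacking gene *Gorasp2* by 0.76, 0.60 and 0.84, and the Golgi SNARE gene *Stx5a* by 1.16, 0.80 and 0.68. *Mia3* and *Mia2*, which load bulky cargo, rose in *Sst*-like nuclei by 0.58 and 0.66. *Nucb2* alone of this list also rose in L4/5 IT-, L6 CT-, *Lamp5*- and OPC-like nuclei and over all neurons, and none was called in the other 10 classes, CA1-like and *Vip*-like nuclei among them. Both this list and the next, of ER stress reference genes, were chosen with earlier results of these data known. A rise of their genes is thus a description and no independent support. All 6 ER stress reference genes (*Hspa5*, *Derl3*, *Herpud1*, *Sdf2l1*, *Creb3l2* and *Dnajb9*) rose in *Sst*-, *Pvalb*- and DG-like nuclei, *Hspa5* by 3.17, 2.33 and 2.14. All 6 also rose in *Lamp5*-like nuclei, 5 in L4/5 IT-like nuclei and over all neurons, 4 in OPC-like nuclei and the cluster led by *Il1rapl2*, and 3 in L6 CT-, CA3- and oligodendrocyte-like nuclei.

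Marker sums moved with the groups in these classes. The summed level of 6 oligodendrocyte markers was 87.9 and 58.4 CPM in the WT and 47.0 and 39.4 in the KO libraries of *Sst*-like nuclei, and 152 and 115 against 94.3 and 91.5 in DG-like nuclei. The groups overlapped in *Pvalb*-like nuclei, at 69.0 and 61.4 against 65.5 and 44.5. The 5 choroid plexus markers summed to 42.4 and 33.2 in the WT and 84.2 and 62.3 in the KO libraries of *Sst*-like nuclei, 63.8 and 42.6 against 95.3 and 68.1 in DG-like nuclei and 30.5 and 29.4 against 79.2 and 37.9 in *Pvalb*-like nuclei, with 4 of 5 markers detected and *Otx2* at 0 in each. The neuron markers, all 6 detected, summed to 6300 and 5930 against 5110 and 5400 in *Sst*-like nuclei to 6200 and 6080 against 6090 and 6080 in DG-like nuclei, and to 4780 and 4840 against 4560 and 4820 in *Pvalb*-like nuclei. Markers of other neuron types differed between the groups too. In *Sst*-like nuclei the 5 *Vip* markers summed to 84.1 and 82.1 against 41 and 35.7, the 5 *Lamp5* markers to 908 and 703 against 583 and 602, the Cajal-Retzius markers (4 of 5 detected, *Trp73* at 0) to 858 and 645 against 501 and 502, and the L6b markers (3 of 4 detected, *Nxph4* at 0) to 245 and 308 against 483 and 492. The *Lamp5* and Cajal-Retzius lists share *Ndnf* and *Reln*, so their sums are not separate changes. The L6b sum was 446 and 447 against 897 and 593 in *Pvalb*-like nuclei and 314 and 280 against 199 and 134 in DG-like nuclei. The markers of the class itself, all 5 detected, were lower in the KO libraries, at 1300 and 1230 against 986 and 1180 in *Sst*-like, 1130 and 1020 against 852 and 973 in *Pvalb*-like and 1490 and 1490 against 1270 and 1280 in DG-like nuclei. Their part in the results was not tested.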

How the data were processed

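Single nuclei of the cortex and hippocampus were sorted and sequenced with a 10x 3′ kit in 2 WT and 2 KO libraries. The authors deposited UMI counts per gene and nucleus, made with Cell Ranger 6.1.0 on GRCm38 per the submitters' processing notes. Nuclei with more than 600 genes and under 5% mitochondrial UMIs were kept, and 1270, 575, 534 and 434 nuclei with the highest Scrublet scores, at 0.8% per 1000 nuclei, were left out as doublets. Libraries were integrated and clustered with Seurat 5.3.0, and clusters were named from fixed markers.

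Raw counts were summed per library and class and tested with edgeR 4.0.16 (quasi-likelihood test, TMM, filterByExpr, Benjamini-Hochberg adjustment over all genes tested in a class, threshold 0.05, prior count 0.125). Differences between classes were tested as interactions with library as a block. P-values within a class rest on the spread between 2 libraries per group, which edgeR moderates over all genes. Those of the interactions rest on the spread between libraries of the difference between the 2 classes. Standard errors of edgeR's values were computed from the log2 fold change and the F statistic of the test. On simulated data with 2-fold changes, 113 of 193 changed genes were recovered for *Sst*-like nuclei (11766 genes). The counts were 122 of 192 for DG-like nuclei and 135 of 198 for all neurons, with 3, 4 and 7 others called. All genes were drawn there with the same fixed spread, not estimated from these libraries, and with no sex difference. Recovery and other calls on the real libraries can thus differ. Alternatives were DESeq2 1.42.0, no low-count filter, doublets kept, nuclei over 1000 genes, names without integration, thinned pseudobulks, the replicate number as a block, a prior count of 2, and each library left out. Comparisons with DG-like nuclei were added after the data were seen. Values in every library are given for the members called in a class, at most the 8 largest with at least 20 UMIs, and others are named by their fold change. The members and lists were chosen with earlier results of these data known.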

Additional observations from a re-analysis of the deposited data

Results flagged for a closer look

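Differences of the genotype effect between classes of neurons passed edgeR's interaction test (adjusted p under 0.05) for the following members. Between DG-like and CA1-like nuclei the log2 fold change was larger in DG-like nuclei by 0.62 for *Sec23a*, 1.22 for *Sec23b*, 0.78 for *Sec31a*, 0.77 for *Lman1*, 0.95 for *Tmed2* and 0.74 for *Tmed10*. It was also larger there by 1.07 for *Copa*, 0.93 for *Copb1*, 0.73 for *Cope*, 0.66 for *Arcn1*, 1.01 for *Sec22b* and 0.71 for *Golgb1*.

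Between *Sst*-like and *Vip*-like nuclei it was larger in *Sst*-like nuclei by 2.69 for *Sec24d*, 1.04 for *Lman1*, 0.92 for *Tmed10*, 0.81 for *Copa*, 1.27 for *Sec22b*, 1.87 for *Bet1* and 0.97 for *Golgb1*. Between *Pvalb*-like and *Vip*-like nuclei, which use the same *Vip*-like pseudobulks, it was larger in *Pvalb*-like nuclei by 2.69 for *Sec24d*, 1.02 for *Lman1*, 0.69 for *Copa*, 1.17 for *Sec22b* and 0.73 for *Golgb1*. In the comparisons added after the data were seen, *Sec24d* was larger by 2.19 in *Sst*-like and 2.16 in *Pvalb*-like than in DG-like nuclei, and *Sec16a* by 0.77 in *Sst*-like nuclei.

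Cre was present in the neurons of the library labelled WT replicate 1 at 4.24 CPM, while WT replicate 2 held none.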

How the results depend on the processing

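No alternative turned the direction of a named value. The prior count of 2 alters only fold changes, so its 28 repeats could not cross the threshold. With DESeq2 25 named values kept their side of the threshold and 30 lost it. Of 495 repeats of 55 named values, 394 kept their side of the threshold and 101 lost it, and the cause was not tested. Members called went from 18 to 10 with DESeq2 in *Sst*-like nuclei, from 16 to 9 with thinned pseudobulks in DG-like nuclei, from 1 to 0 with either in L4/5 IT-like nuclei, and from 3 to 1 with DESeq2 or doublets kept in OPC-like nuclei. In the same order, all genes called higher went from 551 to 266, from 250 to 114, from 176 to 154 and 48, and from 447 to 171 and 212. With thinned pseudobulks no member could be tested in OPC-like nuclei. In *Lamp5*-like nuclei 0 became 3 without the low-count filter, 1 with doublets kept and 2 with names without integration. All genes called higher there went from 30 to 153, 53 and 98. In oligodendrocyte-like nuclei 0 became 1 with names without integration (genes called higher went from 88 to 167). Over all neurons 0 became 2 with DESeq2 and 2 without the filter (genes from 25 to 269 and 209). DESeq2 called 1 member in each interaction, with 17 to 36 of all genes called larger, against 116 to 254 in the main fit. No filter gave 1 in place of 2 between *Sst*-like and DG-like nuclei (genes from 254 to 161). Leaving out each library in turn changed the number of members called, and that of all genes called higher changed too. Without WT replicate 1 the log2 fold changes of the 8 named members in *Sst*-like nuclei lay at 0.91 to 2.99, against 0.96 to 2.61 in the main fit. They lay at 0.70 to 2.64 against 0.75 to 2.66 in *Pvalb*-like nuclei, and at 0.91 to 1.55 against 0.89 to 1.35 in DG-like nuclei. In L4/5 IT-like nuclei *Sec24d* ran from 0.78 to 1.00 over these fits, against 0.89. In *Lamp5*-like nuclei, the cluster led by *Il1rapl2* and over all neurons, some of these fits called members where the main fit called none. More of all genes were called higher in those fits. The interactions ranged over 6 to 11 (DG against CA1), 1 to 5 (*Sst* against *Vip*), 2 to 6 (*Pvalb* against *Vip*) and 1 to 1 (*Sst* against DG). With 1 library left in a group, it was assumed to vary like the other group. Thinned pseudobulks were not run over all neurons.

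With the replicate number as a block, 20 members were called in *Sst*-like, 8 in *Pvalb*-like, 20 in DG-like, 4 in *Lamp5*-like and 3 in oligodendrocyte-like nuclei, and 2 over all neurons. In the same order, all genes called higher numbered 679, 236, 429, 171, 319 and 248, against 551, 266, 250, 30, 88 and 25 in the main fit. Deviations of same-numbered libraries correlated at 0.103 to 0.242 in the neuronal sets, and the number matches sex in both groups (replicate 1 male, replicate 2 female), so the block cannot be told apart from sex. With 2 pairs and no label that ties same-numbered libraries, the numbers were not taken as pairs.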
